A study of Homo sapiens with 6 samples.

Results

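The chemokine genes CXCL8, CXCL1, CXCL2, CXCL3, CXCL10, CCL20 and CCL2 were examined with the cytokine gene IL32, the adhesion receptor gene ICAM1 and the receptor gene IL31RA in 6 RNA libraries of HEK293 cells. These 10 genes, of 63677 in the deposited count table, were listed by symbol with their levels and differences from control in these same libraries already known, so their values against control, and how many of them were called there, are given as a description with no p. HEK293 is a human embryonic kidney cell line, grown here in DMEM. The cells received an siRNA against circRAB3IP (siRAB3IP, 2 libraries), an siRNA against circCAMSAP1 (siCAMSAP1, 2 libraries) or an siRNA labelled NTC (control, 2 libraries), each by RNAiMAX lipofection, and were lysed 48 hours later. The targets are circular RNAs, closed loops spliced from the exons of RAB3IP and CAMSAP1. All 3 groups therefore share the line, the transfection reagent and an siRNA.

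Libraries were grouped by the names in the authors' deposited tables, which go against the sample records in 4 of 6 cases. The second control library of the tables is titled as a circRAB3IP knockdown, and the first siRAB3IP library is titled as a control. The second siRAB3IP library is titled as a circCAMSAP1 knockdown, and the first siCAMSAP1 library as a circRAB3IP knockdown. In all 4 records titled as knockdowns, the genotype field names the other circular RNA than the title does. Every direction below rests on the tables' names. Grouped by the record titles, edgeR (Benjamini-Hochberg) called 0 of the 10 genes in each of the 3 comparisons (1, 0 and 0 genes at an unadjusted p under 0.05), and DESeq2 called 0 as well.

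The libraries held 38108240 to 38995742 fragments assigned to genes for siRAB3IP, 39073508 to 39188378 for siCAMSAP1 and 37379217 to 39637733 for control, so 3 fragments correspond to 0.0726 to 0.0803 CPM, fragments scaled to a common library size (counts per 1000000). Fragments of the host genes cannot check the knockdowns, since a gene count does not separate circles from linear transcripts and the RNA was poly(A)-selected. RAB3IP had 68.1 and 66.7 CPM in siRAB3IP libraries, 56.3 and 61.6 CPM in siCAMSAP1 libraries, and 57.5 and 62.5 CPM in control libraries. CAMSAP1 had 156 and 150 CPM in siRAB3IP, 139 and 138 CPM in siCAMSAP1, and 138 and 136 CPM in control libraries. Of 10 genes listed as marking HEK293 cells, 8 passed the filter on low counts. Among them the neurofilament gene NEFL had 104 and 144 CPM in siRAB3IP libraries, 89.3 and 96.6 CPM in siCAMSAP1 libraries, and 152 and 167 CPM in control libraries, while the kidney transcription factor gene PAX2 had 1 to 9 fragments a library. Of the 8 tested, 1 rose (ENO2) and 4 fell (LHX1, GATA3, KRT8 and KRT18) with siRAB3IP, and 1 fell (NEFL) with siCAMSAP1. NEFL was not called with siRAB3IP (edgeR adjusted p = 0.0773). Among all genes tested, 6.39% rose and 5.24% fell with siRAB3IP, and 0.493% fell with siCAMSAP1. Of 12 blood cell markers, HBB and TYROBP were at 0 in every library and 4 passed the filter. The summed level of the 12 was 9.6 and 9.83 CPM in siRAB3IP libraries, 7.84 and 9.83 CPM in siCAMSAP1 libraries, and 6.07 and 6.82 CPM in control libraries. One of them, the actin-bundling gene LCP1, averaged 4.33 ± 0.246 CPM in siRAB3IP, 2.66 ± 0.406 CPM in siCAMSAP1 and 1.24 ± 0.236 CPM in control libraries (SD, n = 2 each). The part of this difference in the values below was not tested.

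Chemokines are small secreted proteins that guide leukocytes along gradients through G protein-coupled receptors, and their names follow the spacing of their first cysteines (CXC or CC). Several of them, like ICAM1, are transcribed from promoters with binding sites for NF-kB, a transcription factor family that inflammatory cytokines and foreign nucleic acids release from its inhibitors. Epithelial cells of many tissues switch these genes on in inflammation, so that neutrophils, monocytes and lymphocytes enter the tissue.

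The bases before the transcription starts of these genes are printed first, since the genes share short elements there. In the RefSeq promoter table (GRCh38.p14), windows were matched by symbol for 8 of the 10 genes, all but CCL2 and IL31RA. Each sequence below runs from 5′ to 3′ on the gene's strand and ends at the base before the annotated start. Capitals mark matches to a kB element (GGNANTTCC), to an AP-1 element (TGANTCA) and to an interferon-stimulated response element, ISRE (GAAA, any 2 bases, GAAA). The CXCL8 stretch lies at chr4:73740419-73740568 on the plus strand, that of CXCL1 at chr4:73869283-73869392 on the plus strand, that of CXCL2 at chr4:74099196-74099305 on the minus strand, and that of CXCL3 at chr4:74038690-74038799 on the minus strand. CXCL10 is shown from chr4:76023498-76023727 on the minus strand and ICAM1 from chr19:10270920-10271119 on the plus strand.
CXCL8: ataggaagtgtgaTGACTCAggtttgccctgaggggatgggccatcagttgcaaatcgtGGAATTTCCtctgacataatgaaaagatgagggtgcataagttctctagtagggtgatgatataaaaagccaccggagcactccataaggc
CXCL1: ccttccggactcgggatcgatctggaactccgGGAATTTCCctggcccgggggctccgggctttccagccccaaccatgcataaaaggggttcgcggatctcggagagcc
CXCL2: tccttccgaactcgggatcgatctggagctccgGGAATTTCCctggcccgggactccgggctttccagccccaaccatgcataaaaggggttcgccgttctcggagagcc
CXCL3: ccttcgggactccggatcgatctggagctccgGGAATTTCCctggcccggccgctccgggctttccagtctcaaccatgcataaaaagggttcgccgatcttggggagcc
CXCL10: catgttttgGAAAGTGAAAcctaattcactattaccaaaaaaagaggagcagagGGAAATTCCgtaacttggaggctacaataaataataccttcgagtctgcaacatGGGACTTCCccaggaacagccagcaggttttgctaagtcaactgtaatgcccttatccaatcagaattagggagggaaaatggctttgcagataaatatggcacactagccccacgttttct
ICAM1: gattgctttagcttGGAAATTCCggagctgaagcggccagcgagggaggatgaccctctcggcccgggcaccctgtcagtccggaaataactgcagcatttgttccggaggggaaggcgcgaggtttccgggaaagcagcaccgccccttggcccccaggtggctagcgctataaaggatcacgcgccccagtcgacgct

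The 4 neutrophil-attracting chemokine genes carry the same 9 bases, GGAATTTCC, at nearly the same distance from the start: -91 to -83 in CXCL8, -78 to -70 in CXCL1 and CXCL3, and -77 to -69 in CXCL2, counted from the start with the base before it as -1. ICAM1 carries GGAAATTCC at -186 to -178. CXCL10 holds GGAAATTCC at -176 to -168 and GGGACTTCC at -122 to -114. CXCL8 alone of the 8 genes has an AP-1 match, at -137 to -131, and CXCL10 alone an ISRE match, at -221 to -212. Over 250 bases on both strands, a kB match was found for 7 of 8 genes, all but CCL20, against 4.25% of the 35116 windows in the table. A gene was counted if any of its windows matched, so the share of genes and that of windows are unlike measures. For IL32 the match was at its first start only. The AP-1 letters were in 6.57% of windows and the ISRE letters in 3.02%. A TATA box (TATAAA), which no capitals mark, was found in CXCL8, CCL20 and ICAM1 and in 10.7% of windows. The searched letters were chosen with the known elements of these promoters in mind, and no binding was measured here. Only these letters were searched, so elements spelled otherwise would be missed, in CCL20 as in the other genes.

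**Figure D1:**
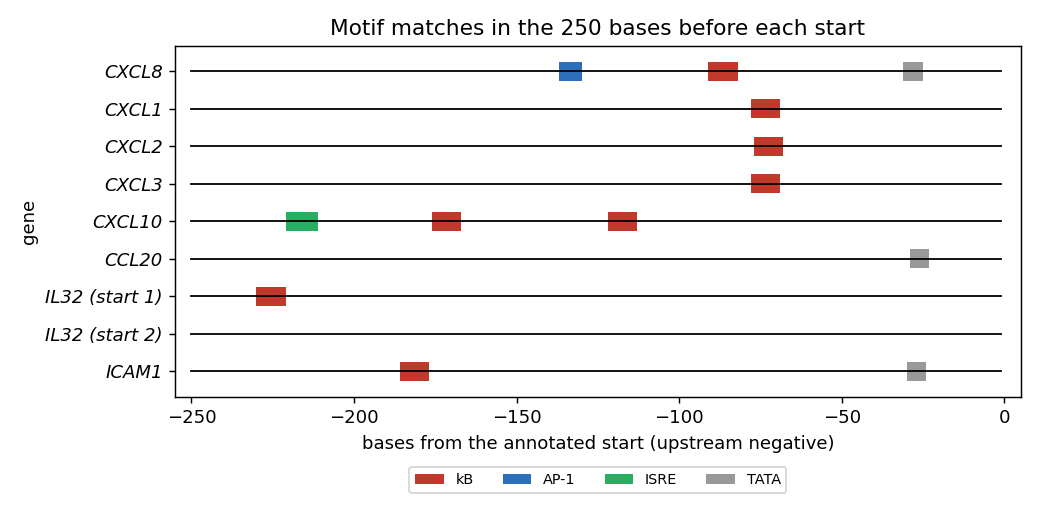
Positions of motif matches in the 250 bases before the annotated start of each gene with a promoter window, in bases from the start (x axis); each colour is a motif. The kB matches of CXCL8, CXCL1, CXCL2 and CXCL3 stand between -91 and -69, and those of CXCL10, IL32 (first start only) and ICAM1 farther upstream. Of the letters searched, CCL20 has those of TATA only.

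CXCL1, CXCL2 and CXCL3 are recent copies of one another on chromosome 4. Over the 250 upstream bases, CXCL1 was identical to CXCL3 at 81.4% of aligned positions, to CXCL2 at 70.1% and to CXCL8 at 43.9%, and CXCL2 to CXCL3 at 73.4%. Fragments that map to more than 1 copy may have been lost or split, so the levels of these 3 genes are uncertain. In the count table (hg19), CXCL8 spans chr4:74606223-74609433 and CXCL1 chr4:74735110-74736959 on the plus strand. CXCL3 spans chr4:74902306-74904524, CXCL2 chr4:74962752-74965010 and CXCL10 chr4:76942273-76944650 on the minus strand. CCL20 spans chr2:228678558-228682272, CCL2 chr17:32582304-32584222, IL32 chr16:3115298-3131908, ICAM1 chr19:10381511-10397291 and IL31RA chr5:55147207-55218678, all on the plus strand.

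All 10 genes passed the filter on low counts. Against control, 8 of 10 were called higher and 0 lower in siRAB3IP libraries at an adjusted p under 0.05 (edgeR, Benjamini-Hochberg over 22331 genes), where 6.39% of all genes tested were called higher and 5.24% lower. In siCAMSAP1 libraries 3 of 10 were called higher and 0 lower, beside 0.448% and 0.493% of all genes. Nothing is read from these counts, since the genes were picked on these comparisons. The median log2 fold change over the 10 genes was 1.60 for siRAB3IP and 0.97 for siCAMSAP1, beside -0.01 and 0.0 over all genes tested. Both comparisons use the same 2 control libraries. In bulk libraries, more cells expressing a gene and more RNA of it per cell cannot be told apart. Whether the 2 libraries of each group had separate cultures behind them is not stated, so p-values here measure only the spread between libraries, which may be technical.

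**Figure D2:**
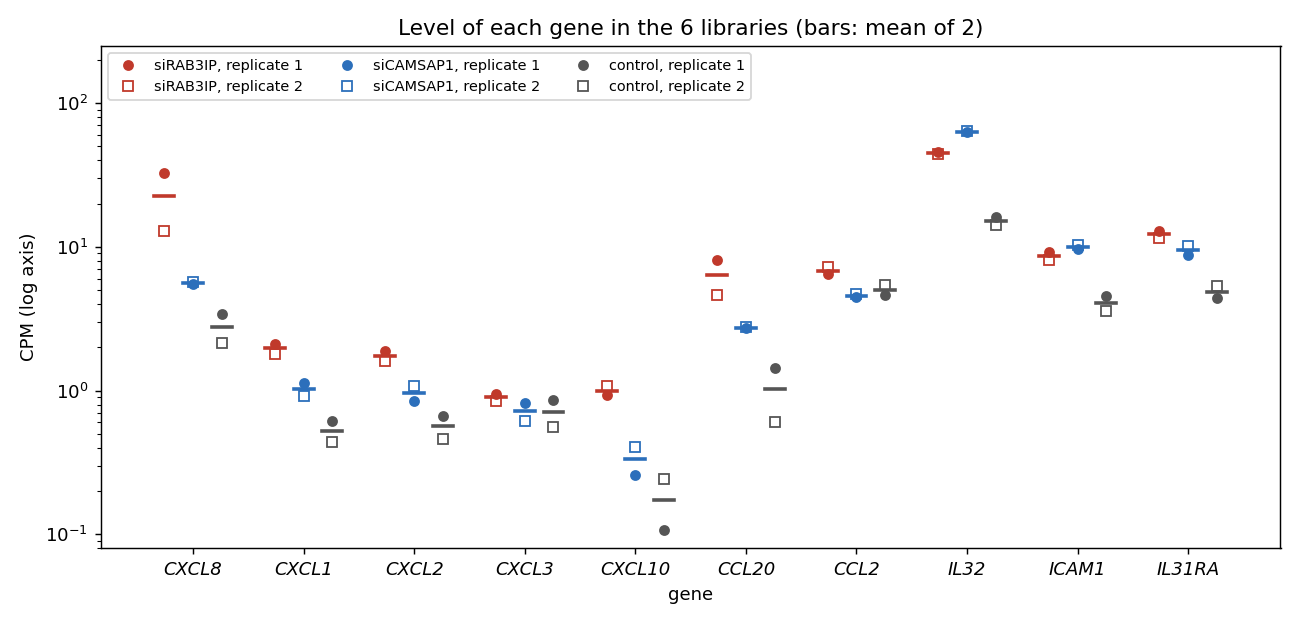
Level of each gene in the 6 libraries, in CPM on a log axis; circles and squares are replicates 1 and 2, bars their mean, with siRAB3IP left, siCAMSAP1 in the middle and control right. CXCL8 and CCL20 stand apart between the 2 siRAB3IP libraries, the IL32 libraries of a group lie close together, and CXCL3 overlaps control in both knockdown groups.

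CXCL8 encodes interleukin-8, which draws neutrophils through the receptors CXCR1 and CXCR2. It had 1232 and 482 fragments in siRAB3IP libraries, 214 and 225 in siCAMSAP1 libraries, and 128 and 89 in control libraries. In CPM these were 32.6 and 12.8 in siRAB3IP, 5.52 and 5.71 in siCAMSAP1, and 3.42 and 2.15 in control. The 3 groups did not overlap, and the siRAB3IP libraries differed 2.54-fold between themselves, the widest gap within a group for any of the 10 genes. The log2 fold change against control was 3.03 ± 0.35 (SE) for siRAB3IP, 8.18-fold, and 1.02 ± 0.38 for siCAMSAP1, 2.02-fold. Without siRAB3IP replicate 1, the higher library, the siRAB3IP value was 4.62-fold. The siCAMSAP1 value was not called with all libraries and was called without either siRAB3IP library, which enter that fit through the shared spread. The gene's 9-base kB match and its AP-1 match are those printed above.

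CXCL1, CXCL2 and CXCL3 act on CXCR2 and also recruit neutrophils. CXCL1 had 80 and 68 fragments in siRAB3IP libraries, 44 and 36 in siCAMSAP1 libraries, and 23 and 18 in control libraries. The means were 1.96 ± 0.216 CPM in siRAB3IP, 1.02 ± 0.155 CPM in siCAMSAP1 and 0.525 ± 0.127 CPM in control (SD, n = 2 each), with no overlap between groups. CXCL1 had a log2 fold change against control of 1.90 ± 0.31 for siRAB3IP and 0.97 ± 0.33 for siCAMSAP1. CXCL2 followed the same order, with 72 and 60 fragments in siRAB3IP, 33 and 42 in siCAMSAP1, and 25 and 19 in control. Its log2 fold change against control was 1.64 ± 0.31 for siRAB3IP and 0.77 ± 0.33 for siCAMSAP1. CXCL3 differed from both: it had 36 and 32 fragments in siRAB3IP libraries, 32 and 24 in siCAMSAP1 libraries, and 32 and 23 in control libraries. Both knockdown groups overlapped control, and the log2 fold change against control was 0.36 ± 0.36 for siRAB3IP and 0.03 ± 0.36 for siCAMSAP1. CXCL3 carries the kB match at the position found in CXCL1, in the most similar of the 3 upstream pairs.

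CXCL10, an interferon-induced chemokine that attracts T cells through CXCR3, had the fewest fragments of the 10 genes summed over the 6 libraries. It had 35 and 40 in siRAB3IP libraries, 10 and 16 in siCAMSAP1 libraries, and 4 and 10 in control libraries. The siRAB3IP libraries stood clear of the other 4, whereas the siCAMSAP1 and control values met at 10 fragments, or 0.258 CPM in the lower siCAMSAP1 library and 0.242 CPM in the higher control library. The log2 fold change against control was 2.47 ± 0.49 for siRAB3IP and 0.90 ± 0.55 for siCAMSAP1, and without control replicate 2 the siRAB3IP value was 9.07-fold, against 5.54-fold with all libraries, and the siCAMSAP1 log2 value was 1.60. Its neighbour and relative CXCL11, another CXCR3 ligand, was below the filter with 9 and 11 fragments in siRAB3IP libraries, 2 and 1 in siCAMSAP1 libraries, and 0 and 3 in control libraries. The ratio of summed CXCL11 counts of siRAB3IP to control was 6.96 (95% interval 2.07 to 36.6, counting error only). CXCL11 was chosen for mention after its values were seen.

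CCL20, the ligand of CCR6 on dendritic cells and lymphocytes, had 306 and 174 fragments in siRAB3IP libraries, 105 and 109 in siCAMSAP1 libraries, and 54 and 25 in control libraries. The groups did not overlap, and the larger library exceeded the smaller 1.75-fold within siRAB3IP and 2.39-fold within control. The log2 fold change of CCL20 was 2.65 ± 0.34 for siRAB3IP and 1.43 ± 0.36 for siCAMSAP1. Without control replicate 1, the siRAB3IP value was 10.5-fold, against 6.27-fold with all libraries, and the siCAMSAP1 log2 value was 2.17 and was then called. CCL2, the monocyte attractant that binds CCR2, behaved otherwise, with 6.43 and 7.19 CPM in siRAB3IP libraries, 4.46 and 4.67 CPM in siCAMSAP1 libraries, and 4.6 and 5.42 CPM in control libraries. The siRAB3IP libraries were above the other 4, and the siCAMSAP1 libraries overlapped control. Its log2 fold change against control was 0.44 ± 0.15 for siRAB3IP and -0.14 ± 0.16 for siCAMSAP1. Per kilobase of exon, the mean of CXCL8 was above that of CCL2 in siRAB3IP libraries (9.99 and 5.99 RPKM). It was below that of CCL2 in siCAMSAP1 (2.47 and 4.02 RPKM) and control libraries (1.23 and 4.41 RPKM). The siRAB3IP order held in replicate 1 only. In siRAB3IP replicate 2, CXCL8 had 12.8 CPM over 2274 exon bases and CCL2 had 7.19 CPM over 1137. Per kilobase, CXCL8 was thus below CCL2 in that library.

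IL32 encodes a cytokine of lymphoid and epithelial cells that induces other inflammatory cytokines. It had 1718 and 1675 fragments in siRAB3IP libraries, 2440 and 2504 in siCAMSAP1 libraries, and 604 and 591 in control libraries. In CPM these were 45.4 and 44.6 in siRAB3IP, 62.9 and 63.6 in siCAMSAP1, and 16.2 and 14.3 in control. No groups overlapped, siCAMSAP1 was the highest, and the libraries of a group differed by at most 1.13-fold. The log2 fold change of IL32 against control was 1.56 ± 0.09 for siRAB3IP, 2.96-fold, and 2.06 ± 0.09 for siCAMSAP1, 4.16-fold. Per kilobase of exon, IL32 was the most abundant of the 10 genes in every group, with a mean of 15.4 RPKM in siRAB3IP, 21.6 RPKM in siCAMSAP1 and 5.21 RPKM in control. Its first RefSeq start has a kB match of other letters, GGCAGTTCC, at -230 to -222.

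ICAM1 is the cell surface ligand by which leukocyte integrins hold on to endothelium and epithelium. It had 348 and 306 fragments in siRAB3IP libraries, 375 and 405 in siCAMSAP1 libraries, and 171 and 148 in control libraries. In CPM these were 9.2 and 8.15 in siRAB3IP, 9.67 and 10.3 in siCAMSAP1, and 4.57 and 3.58 in control, so both knockdown groups lay above control and siCAMSAP1 above siRAB3IP. The log2 fold change of ICAM1 against control was 1.09 ± 0.16 for siRAB3IP and 1.29 ± 0.15 for siCAMSAP1. The antisense gene ICAM4-AS1 shares 815 exon bases with ICAM1, and counting ignored strand, so reads of the 2 cannot be told apart; 58 fragments over the 6 libraries were assigned to ICAM4-AS1. IL31RA, the receptor chain for the itch cytokine IL31, had 483 and 437 fragments in siRAB3IP libraries, 343 and 400 in siCAMSAP1 libraries, and 164 and 220 in control libraries. The groups did not overlap, and siRAB3IP was the highest. Against control, IL31RA had a log2 fold change of 1.33 ± 0.15 for siRAB3IP and 0.97 ± 0.15 for siCAMSAP1.

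**Figure D3:**
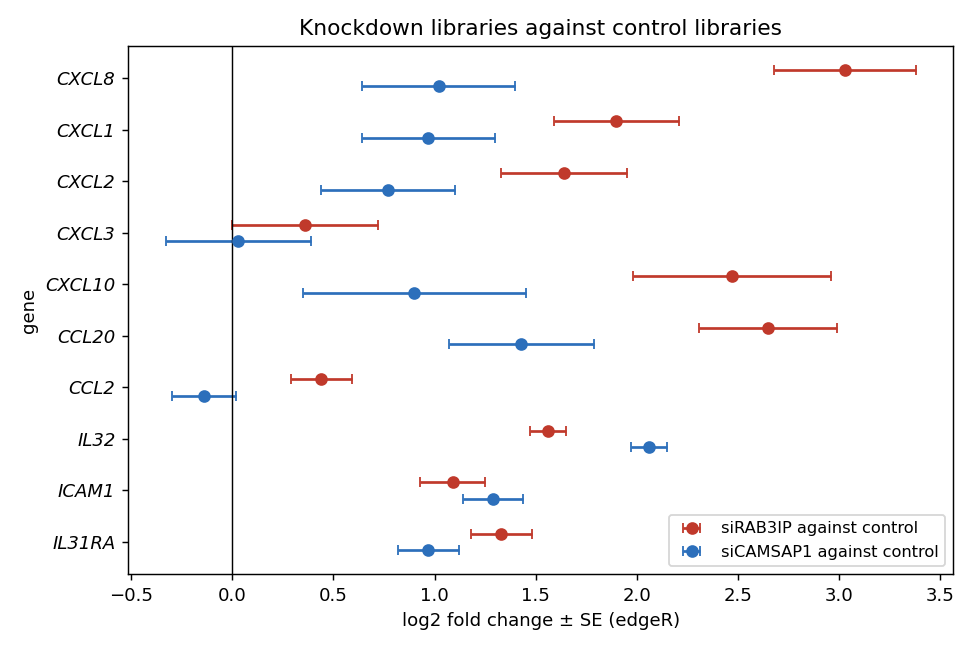
Log2 fold change of each gene against control (x axis, with SE from edgeR), for siRAB3IP and siCAMSAP1. The chemokine genes other than CCL2 and CXCL3 lie between 1.64 and 3.03 for siRAB3IP and between 0.77 and 1.43 for siCAMSAP1, while IL32 (1.56 and 2.06) and ICAM1 (1.09 and 1.29) have the larger value for siCAMSAP1.

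The authors' deposited tables, which list genes past their own adjusted threshold, held 5 of the 10 genes in both comparisons: CXCL8, CCL20, IL32, ICAM1 and IL31RA. In the authors' deposited table for siRAB3IP, the log2 fold change was 2.93 for CXCL8, 2.68 for CCL20, 1.57 for IL32, 1.1 for ICAM1 and 1.34 for IL31RA. In the authors' deposited table for siCAMSAP1 it was 1.02 for CXCL8, 1.48 for CCL20, 2.05 for IL32, 1.29 for ICAM1 and 0.99 for IL31RA. That second table thus lists CXCL8 and CCL20, which edgeR did not call against control in siCAMSAP1 libraries.

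The comparison of siRAB3IP with siCAMSAP1 shows where the knockdowns differ, without the control libraries entering either mean. In it, 4 of the 10 genes were higher in siRAB3IP libraries (CXCL8, CXCL10, CCL20 and CCL2) and 1, IL32, was lower, at an adjusted p under 0.05 by edgeR's quasi-likelihood test. Of all genes tested, 4.89% were called higher and 3.96% lower in this comparison. The 2 groups did not overlap for any of the 10 genes: 8 were higher in both siRAB3IP libraries, and IL32 and ICAM1 were lower in both. Such separation is common with 2 libraries a group: 25.8% of all genes tested were higher in both siRAB3IP libraries and 26.4% lower. The genes were chosen with values of these libraries known, so the tests are not independent of that choice.

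CXCL8 averaged 22.7 ± 14.0 CPM in siRAB3IP libraries and 5.62 ± 0.14 CPM in siCAMSAP1 libraries (SD, n = 2 each), with a log2 fold change of 2.02 ± 0.33 (edgeR adjusted p = 0.00285). Without siRAB3IP replicate 1 the difference of CXCL8 was 2.28-fold, against 4.04-fold with all libraries, and with a robust estimate of the spread its edgeR adjusted p was 0.1. CXCL10 averaged 0.995 ± 0.0986 CPM in siRAB3IP libraries and 0.332 ± 0.105 CPM in siCAMSAP1 libraries, a log2 fold change of 1.57 ± 0.44 (edgeR adjusted p = 0.0438). CCL20 averaged 6.36 ± 2.45 CPM in siRAB3IP and 2.74 ± 0.0438 CPM in siCAMSAP1, a log2 fold change of 1.22 ± 0.30 (edgeR adjusted p = 0.0246). CCL2 averaged 6.81 ± 0.54 CPM in siRAB3IP and 4.57 ± 0.151 CPM in siCAMSAP1, a log2 fold change of 0.58 ± 0.16 (edgeR adjusted p = 0.0369). DESeq2 did not call CXCL10 and CCL20. Leaving out any 1 of the 4 knockdown libraries ended the calls of CXCL10 and CCL2, and leaving out siRAB3IP replicate 1 or either siCAMSAP1 library ended that of CCL20. Over all alternatives by table names, the adjusted p ranged between 0.0114 and 0.243 for CXCL10, between 1.99e-05 and 0.227 for CCL20, and between 0.00394 and 0.222 for CCL2 (edgeR, limma or DESeq2, Benjamini-Hochberg).

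IL32 ran the other way from the chemokines. It averaged 45.0 ± 0.589 CPM in siRAB3IP libraries and 63.2 ± 0.497 CPM in siCAMSAP1 libraries, 1.4-fold lower in siRAB3IP (log2 fold change -0.49 ± 0.09, edgeR adjusted p = 0.0041). The call was lost without siRAB3IP replicate 2, with an edgeR adjusted p of 0.051. ICAM1 had the same sign, -0.20 ± 0.15, and did not pass (edgeR adjusted p = 0.457). CXCL1 at 0.94 ± 0.28 and CXCL2 at 0.87 ± 0.29 were higher in both siRAB3IP libraries and missed the threshold, with edgeR adjusted p-values of 0.0568 and 0.0895; over the alternatives these ranged between 0.0164 and 0.252 for CXCL1 and between 0.0419 and 0.36 for CXCL2. IL31RA differed by 0.36 ± 0.14 (edgeR adjusted p = 0.132, and between 0.0299 and 0.479 over the alternatives) and CXCL3 by 0.33 ± 0.35 (edgeR adjusted p = 0.639). The median log2 fold change over the 10 genes was 0.72, beside -0.01 over all genes.

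**Figure D4:**
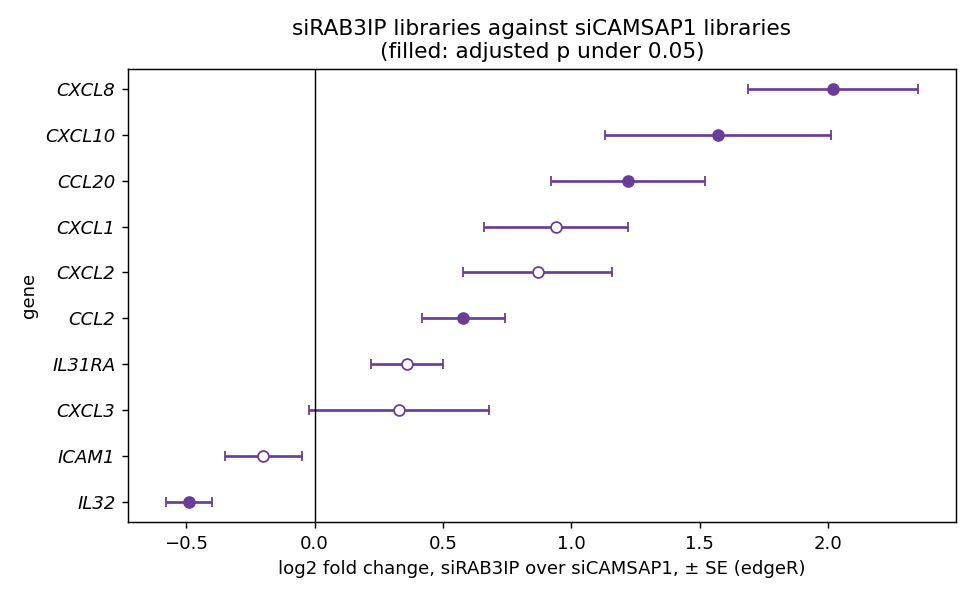
Log2 fold change of siRAB3IP over siCAMSAP1 libraries (x axis, with SE from edgeR), with filled points at an adjusted p under 0.05. CXCL8 is highest at 2.02, and IL32 lies at -0.49 on the other side of 0.

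The receptors of these chemokines had few or no fragments. CXCR1 had 0 and 2 fragments in siRAB3IP libraries, 0 and 0 in siCAMSAP1 libraries, and 1 and 1 in control libraries. CXCR2 had 5 and 2 fragments in siRAB3IP, 0 and 1 in siCAMSAP1, and 2 and 1 in control libraries. CXCR3 had 1 to 3 fragments a library, CCR6 had 1 fragment in 1 control library, and CCR2 had 0 in all 6, which allows a level of up to 0.0726 to 0.0803 CPM a library. Of 23 chemokine receptor genes listed, 7 passed the filter, 10 had at most 3 fragments in every library, and 1 fell against control with siRAB3IP, the scavenging receptor ACKR2 that takes up inflammatory CC chemokines. Over all genes tested, 5.24% fell with siRAB3IP. ACKR2 had 1 and 2 fragments in siRAB3IP libraries, 9 and 12 in siCAMSAP1 libraries, and 22 and 14 in control libraries. The count ratio of siRAB3IP to control was 0.087 (95% interval 0.0171 to 0.275, counting error only, edgeR adjusted p = 0.0113). DESeq2 did not call ACKR2, nor did edgeR without either siRAB3IP library or without control replicate 1.

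None of the further chemokine genes that were tested was called against control. Over all genes tested, 11.6% were called in either direction with siRAB3IP and 0.94% with siCAMSAP1. Few further chemokine genes were tested, so nothing is read from the absence of calls among them. Of 12 further CXC chemokine genes 3 passed the filter and 0 were called in either knockdown against control, with a median log2 fold change of 0.22 for siRAB3IP and -0.06 for siCAMSAP1. Those 3 were CXCL6, CXCL12 and CXCL16. CXCL6, which also acts on CXCR1 and CXCR2, had 34 and 34 fragments in siRAB3IP libraries, 26 and 32 in siCAMSAP1 libraries, and 29 and 32 in control libraries. CXCL16, a membrane-bound ligand of CXCR6, was the most abundant of the 3, with 11.4 and 9.24 CPM in siRAB3IP libraries, 14.0 and 10.6 CPM in siCAMSAP1 libraries, and 9.18 and 6.87 CPM in control libraries. Its siRAB3IP and siCAMSAP1 values lay above control, with log2 fold changes of 0.36 ± 0.18 and 0.62 ± 0.17 that did not pass (edgeR adjusted p = 0.216 for siRAB3IP and 0.141 for siCAMSAP1). PPBP and CXCL9 were at 0 throughout. Of 27 genes of the CC, XC and CX3C families 17 were matched by symbol and 4 of these passed the filter, with 0 called in either knockdown and medians of -0.13 for siRAB3IP and -0.03 for siCAMSAP1. The unmatched genes, which were not examined, were CCL3, CCL3L1, CCL4, CCL4L2, CCL5, CCL14, CCL15, CCL16, CCL18 and CCL23.

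The IL31 receptor joins IL31RA to the oncostatin M receptor OSMR and signals through JAK1, JAK2 and STAT proteins. OSMR had 25.5 and 24.1 CPM in siRAB3IP libraries, 20.4 and 19.0 CPM in siCAMSAP1 libraries, and 16.3 and 16.5 CPM in control libraries. It rose by 0.60 ± 0.10 on the log2 scale with siRAB3IP (edgeR adjusted p = 0.00237), and its value with siCAMSAP1 was 0.27 ± 0.10 (edgeR adjusted p = 0.288). The ligand IL31 had 1 fragment in all 6 libraries together. Of 22 tested genes of this receptor family and its signalling, 4 rose and 1 fell with siRAB3IP, and 2 rose and 0 fell with siCAMSAP1, with medians of 0.12 and 0.14. The shares of all genes tested that rose and fell were 6.39% and 5.24% with siRAB3IP, and 0.448% and 0.493% with siCAMSAP1. IL6R, the interleukin-6 receptor, rose by 1.31 ± 0.18 with siRAB3IP (edgeR adjusted p = 0.000972), and the kinase JAK1 fell by 0.58 ± 0.08 (log2 fold change -0.58, edgeR adjusted p = 0.000767). The interleukin-27 receptor IL27RA rose by 0.79 ± 0.14 with siCAMSAP1 (edgeR adjusted p = 0.0223), a call lost without either siCAMSAP1 library or control replicate 1.

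ICAM1 is bound by the integrins LFA-1 (ITGAL with ITGB2) and Mac-1 (ITGAM with ITGB2). ITGAL had 6 to 14 fragments a library and ITGB2 had 6 to 13. Of 20 tested genes of integrins and adhesion receptors, 5 rose and 2 fell with siRAB3IP and 1 rose with siCAMSAP1, with medians of 0.12 and -0.00. Among all genes tested, 6.39% rose and 5.24% fell with siRAB3IP, and 0.448% rose with siCAMSAP1. SELE, the E-selectin of activated endothelium, had 70 and 38 fragments in siRAB3IP libraries, 13 and 11 in siCAMSAP1 libraries, and 8 and 6 in control libraries. It rose by 2.98 ± 0.47 with siRAB3IP (edgeR adjusted p = 0.00184), although DESeq2 did not call it. Of 7 matched endothelial markers 5 were tested, of which 1 rose and 0 fell with siRAB3IP and 0 rose or fell with siCAMSAP1. The 1 that rose, VWF, averaged 6.13 ± 1.68 CPM in siRAB3IP libraries, 3.66 ± 0.287 CPM in siCAMSAP1 libraries and 3.26 ± 0.146 CPM in control libraries. The summed endothelial markers were 32.4 and 31.2 CPM in siRAB3IP, 31.3 and 28.8 CPM in siCAMSAP1, and 28.9 and 25.6 CPM in control, and their part in the SELE value was not tested. ITGAM, with 30 and 22 fragments in siRAB3IP, 20 and 20 in siCAMSAP1 and 6 and 4 in control, rose by 2.41 ± 0.51 with siRAB3IP (edgeR adjusted p = 0.0104). That call was lost by DESeq2, without siRAB3IP replicate 1 and without control replicate 2. CD44, the hyaluronan receptor, had 168 ± 17.8 CPM in siRAB3IP libraries, 104 ± 0.434 CPM in siCAMSAP1 libraries and 76.3 ± 3.06 CPM in control libraries (SD, n = 2 each). CD44 rose by 1.14 ± 0.09 with siRAB3IP (edgeR adjusted p = 2.01e-05) and by 0.45 ± 0.09 with siCAMSAP1 (edgeR adjusted p = 0.0333), the second call being lost without any 1 of the siCAMSAP1 and control libraries. The integrin subunit ITGB7 had a log2 fold change of -0.89 ± 0.22 with siRAB3IP (edgeR adjusted p = 0.0195), lost without either siRAB3IP library or control replicate 2.

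NF-kB dimers are held back by inhibitors that are themselves induced by NF-kB. Of 21 tested genes of its subunits, inhibitors and adaptors, 12 rose and 0 fell with siRAB3IP (median 0.41), and 5 rose and 0 fell with siCAMSAP1 (median 0.35). Of all genes tested, 6.39% rose with siRAB3IP and 0.448% with siCAMSAP1. The subunit RELB averaged 14.1 ± 2.24 CPM in siRAB3IP libraries, 13.6 ± 0.346 CPM in siCAMSAP1 libraries and 4.7 ± 1.07 CPM in control libraries. The inhibitor NFKBIA averaged 79.0 ± 17.1 CPM in siRAB3IP, 72.1 ± 0.00713 CPM in siCAMSAP1 and 39.6 ± 2.39 CPM in control (SD, n = 2 each). NFKBIA rose by 1.0 ± 0.12 with siRAB3IP (edgeR adjusted p = 0.000432) and by 0.86 ± 0.12 with siCAMSAP1 (edgeR adjusted p = 0.00636). TNFAIP3, the A20 deubiquitinase that ends NF-kB signalling, rose by 1.21 ± 0.19 with siRAB3IP (edgeR adjusted p = 0.00221) and had 0.39 ± 0.20 with siCAMSAP1 (edgeR adjusted p = 0.466). The adaptor TRAF1 rose by 1.06 ± 0.19 with siRAB3IP (edgeR adjusted p = 0.00429) and had 0.70 ± 0.20 with siCAMSAP1 (edgeR adjusted p = 0.142). This list was also known from earlier results of these libraries and is no independent evidence.

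Of 19 tested genes of cytokines that induce chemokines and of their receptors, 3 rose with siRAB3IP and 0 with siCAMSAP1, with medians of 0.16 and 0.07. The shares of all genes tested that rose were 6.39% and 0.448%. TNF, a main inducer of CXCL8 and ICAM1, had 62 and 48 fragments in siRAB3IP libraries, 31 and 31 in siCAMSAP1 libraries, and 22 and 9 in control libraries. It rose by 1.87 ± 0.41 with siRAB3IP (edgeR adjusted p = 0.0116). The TNF value was 2.73 without control replicate 1, and the call was lost by DESeq2, without siRAB3IP replicate 1 and without control replicate 2. TLR4, the lipopolysaccharide receptor, had 12 and 10 fragments in siRAB3IP libraries, 0 and 1 in siCAMSAP1 libraries, and 0 and 0 in control libraries. With 3 fragments over the control group as the floor, TLR4 was 7.66-fold higher in siRAB3IP than control. That fold takes the siRAB3IP fragments as exact. The edgeR adjusted p was 0.0125, a call lost by DESeq2 and without either control library. IL1RAP, the accessory chain of the interleukin-1 receptor, rose by 0.61 ± 0.12 with siRAB3IP (edgeR adjusted p = 0.00821), lost without siRAB3IP replicate 2. Interferon gamma (IFNG), an inducer of CXCL10, was at 0 in every library.

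Among 11610 genes with a symbol and a mean of at least 5 CPM, those whose log2 CPM followed IL32 most closely over the 6 libraries were NF2 (Pearson r = 0.9955), NFKBIE (0.9937), FANCI (0.9902), XYLT2 (0.9886) and F11R (0.9880). All 5 were highest in the siCAMSAP1 group on average. NF2 varied far less than IL32, with means of 296 CPM in siRAB3IP, 306 CPM in siCAMSAP1 and 257 CPM in control. CXCL8 was followed most closely by FAM210A (0.9979), ZMYND11 (0.9948), SLC25A38 (0.9947), EIF2S1 (0.9944) and ATF3 (0.9939). ATF3, a stress-induced transcription factor, had 86.9 and 68.5 CPM in siRAB3IP libraries, 53.8 and 55.1 CPM in siCAMSAP1 libraries, and 44.3 and 38.2 CPM in control libraries. The 6 points share 3 groups, and each r is a description.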

How the data were processed

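Poly(A) RNA of 6 HEK293 libraries (TruSeq RNA kit) was read as fragment counts per gene. The deposited counts were made by the authors with featureCounts 1.6.0, per the headers, which also set no strand, on hg19; the submitters' processing notes name hg19, STAR and DESeq2. Versions of STAR and DESeq2 are not given in the sources used here. Deposited tables of 2192 and 474 genes hold signal columns (counts the authors divided by a size factor), log2 fold changes with standard errors, a Wald score and p-value columns from DESeq2. They were used to name libraries, each normalized column matching 1 count column within 1e-09 (log2), and as quoted.

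Here, edgeR 4.0.16 was run in R 4.3.3 (TMM, filterByExpr, quasi-likelihood test, 1 model over 3 groups, Benjamini-Hochberg over 22331 genes). CPM use TMM-scaled library sizes and RPKM the exon length. Depth was 37379217 to 39637733 fragments a library, and 3 counts set the floor. Alternatives were other scaling, filters, groups, robust spread, a replicate block, DESeq2 1.42.0, limma-voom 3.58.1, leaving out each library, and grouping by records. Named genes were the 10 listed, up to 4 called genes of each pathway list by largest absolute log2 fold change, and the 5 genes most correlated with IL32 and with CXCL8. The 10 genes and the lists were chosen with earlier results of these data known. Symbols were matched for 52560 of 63677 genes. Fibroblast markers summed to 20.5 to 30.8 CPM in knockdown and 24.3 to 32.9 CPM in control libraries (5 of 8 tested, 0 higher and 1 lower with siRAB3IP). Intervals and floors cover counting error only. The fold of TLR4 over its floor leaves out the counting error of the siRAB3IP fragments.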

Additional observations from a re-analysis of the deposited data

How the results depend on the processing

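RLE and upper-quartile scaling, limma-voom and the fit of the compared groups alone gave counts of called genes within 1.5 times those reported (2597 for siRAB3IP against control, 210 for siCAMSAP1 against control and 1977 for siRAB3IP against siCAMSAP1). With no filter on low counts, 560 genes and 5 of the 10 genes, CXCL8 and CCL20 now among them, were called for siCAMSAP1 against control. With a mean of at least 5 CPM, where 5 of the 10 are tested, 4 were called for siRAB3IP against control and 3 in siRAB3IP against siCAMSAP1. DESeq2 called 388 genes for siCAMSAP1 against control and 3 of the 10 genes in siRAB3IP against siCAMSAP1. For siRAB3IP against control, it also did not call CXCL10 and gave no adjusted p for CXCL2. Throughout, a gene to which DESeq2 gave no adjusted p was counted as not called.

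With the replicate block, 5371 genes were called for siRAB3IP against control, 1408 for siCAMSAP1 against control and 4630 in siRAB3IP against siCAMSAP1, and 9, 5 and 8 of the 10 genes; CXCL1, CXCL2 and IL31RA were the 3 added in siRAB3IP against siCAMSAP1. The numbers are not stated to mark a shared culture or day; deviations from the group means correlated at 0.445 (siRAB3IP and siCAMSAP1), 0.45 (siRAB3IP and control) and 0.532 (siCAMSAP1 and control) between libraries of one number over 11784 genes.

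Leaving out 1 library gave 1034 to 2491 called genes for siRAB3IP against control, 67 to 210 for siCAMSAP1 against control and 620 to 2296 in siRAB3IP against siCAMSAP1. Of the 10 genes, 7 to 8, 2 to 4 and 2 to 6 were called. The lowest counts were without siRAB3IP replicate 2 (1034 and 620) and without siCAMSAP1 replicate 2 (67). CXCL10 was not called for siRAB3IP against control without siRAB3IP replicate 2, nor IL31RA for siCAMSAP1 against control without siCAMSAP1 replicate 2. The cause was not tested.

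Grouped by the sample records, edgeR called 0 genes in each comparison (350 genes for siRAB3IP against control, 441 for siCAMSAP1 against control and 471 in siRAB3IP against siCAMSAP1 at an unadjusted p under 0.05), and DESeq2 called 0, 1 and 0. With no filter, chosen like DESeq2 after seeing the data, 52, 33 and 84 genes and 2, 2 and 1 of the 10 were called. With the default filter in edgeR, the log2 fold changes by sample records turned: for siRAB3IP against control to -2.23 for CXCL8, -0.80 for CXCL1, -0.98 for CXCL2, -1.04 for CXCL10, -1.53 for CCL20, -0.06 for ICAM1 and -0.28 for IL31RA, and for siRAB3IP against siCAMSAP1 to -1.28 for CXCL8, -1.54 for CXCL10, -1.17 for CCL20 and -0.26 for CCL2. These groups mix libraries that the tables name differently. CXCL10 and CXCL3 had 4 to 40 fragments a library.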
